A study of Homo sapiens with 10 samples.

Results

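NK-92 cells given an iron chelator for 24 h were compared with NK-92 cells given an antibody to transferrin receptor 1 for the same time. The comparison used the 4 libraries of 10 whose labels give 24 h with 500 µM DFO (deferoxamine, a small molecule that binds iron; 2 libraries) or 24 h with 10 µg/mL T003 (PPMX-T003, the antibody; 2 libraries). Libraries of untreated cells (0 h, 2 libraries) and of cells after 6 h with the same agents at the same concentrations (2 libraries each) entered the shared estimate of spread and are given beside the 24 h values. NK-92 is an established human cell line that came from a lymphoma of natural killer cells. All groups share this 1 line and 1 culture medium, with human serum. Each agent was given at 1 concentration, and no label names a vehicle or a control antibody. No label says that the 2 libraries of a group came from separate cultures. The p-values are therefore set against the spread of these libraries only, and that spread may be technical.

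Cells take up iron when transferrin, the iron carrier of serum, binds transferrin receptor 1 and both are taken into endosomes. When iron is short, iron regulatory proteins protect the receptor's transcript from decay. DFO withholds iron itself, whereas T003 acts on the receptor. Cholesterol supply has its own control: when sterols in the endoplasmic reticulum fall, the factor SREBP2 is released and turns on the genes of cholesterol synthesis and uptake.

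The 4 libraries held 122535710 to 135534058 estimated counts (107117892 to 143575614 over all 10). Of the 15 natural killer cell markers, 14 lay above 1 CPM (counts scaled to a common library size) on average at 24 h, and FCER1G lay near 1. Of 8 T cell markers, CD3G, CD4, CD8A, CD8B and CD40LG were at 0 in the 4 libraries and CD28 alone was above 1 CPM. For B cells, 5 of 6 markers were at 0. Of 8 stromal and epithelial markers, PDGFRB (82 to 89 CPM) and PECAM1 were above 1 CPM. PECAM1 was at 1.507 and 1.251 CPM with DFO and at 3.261 and 1.825 CPM with T003, without a call. CD68 alone of 7 monocyte and macrophage markers was above 1 CPM, and 0 of 6 erythroid markers were. Markers of RNA quality and handling summed to 498 to 518 CPM with DFO and 508 to 524 CPM with T003.

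Few transcripts passed the test between the agents, and most of those differed by little. At 24 h, 270 of 20125 genes tested (1.34%) passed an adjusted p of 0.05 and are called different here. Of these, 178 were higher with T003 (0.884%) and 92 higher with DFO (0.457%). The called differences were small, with a median size of 0.168 on the log2 scale. Of the 270, 39 reached 1.2-fold and 8 reached 1.5-fold. Groups of 2 libraries limit what can be called, and 2794 genes had an unadjusted p under 0.05. Cholesterol synthesis genes were the list with the largest share called, all of them higher with T003. The genes of iron uptake and storage had no call. TMM, the trimmed mean of M-values, corrects CPM levels for library composition. Differences are T003 minus DFO on the log2 scale with their standard error (SE). In bulk RNA, fewer cells of a kind and less RNA per cell cannot be told apart.

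The number of calls rested on every one of the 4 libraries. It was 41 without DFO replicate 1 and 27 without DFO replicate 2, and it was 16 and 14 without T003 replicates 1 and 2. Other libraries moved it too, to 95 and 96 without T003 replicates 1 and 2 at 6 h and to 175 without untreated replicate 2. Of the 65 genes named here with a call, 8 to 17 were still called when 1 of the 4 libraries was left out, and none of the 270 changed sign. The genes called higher with T003 had a median GC content of 51.9% and those called higher with DFO one of 42.7%, against 48% for all genes tested. Across the 6157 genes with a mean log2 CPM above 5 and a known sequence, the rank correlation of GC content with the difference was 0.299 at 24 h, and the 2 T003 libraries at 24 h differed from each other along GC content too (-0.249). With the dependence on GC content and transcript length taken out of every library, 343 genes were called, and 227 of them were among the 270. In that fit 61 of the 65 named genes with a call were still called. The calls on NPM1 and ATG3, given below, were among those lost. How far GC content itself set single differences was not tested.

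**Figure D1:**
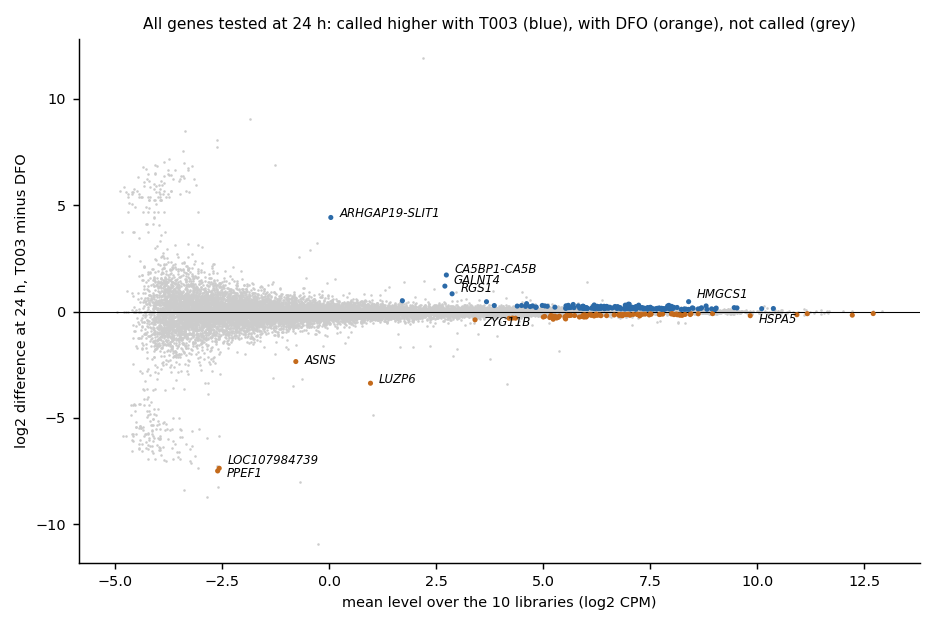
Each point is 1 of 20125 genes, by its mean level over the 10 libraries (log2 CPM, x axis) and its difference between T003 and DFO at 24 h (log2, y axis). The 178 genes called higher with T003 (blue) and the 92 called higher with DFO (orange) mostly lie within 0.5 of 0, and the few called points far from 0 are at low levels.

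TFRC, the gene of transferrin receptor 1 (hg38, chr3:196049284-196082090, minus strand), did not pass the test between the agents. Its level at 24 h was 834 and 833 CPM with DFO and 845 and 847 CPM with T003, against 177 and 165 CPM in untreated cells. The groups did not overlap, but they lay close together, with a difference of 0.02 (SE 0.034, adjusted p = 0.875, 95% interval -0.05 to 0.10). At 6 h TFRC stood at 361 and 345 CPM with DFO and at 437 and 419 CPM with T003. That earlier difference of 0.28 (SE 0.034) had an adjusted p of 0.064 and passed the test in 10 of 21 alternatives, with adjusted p from 9.14e-16 to 0.322.

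The other genes that store and sense iron did not pass the test either. FTH1, the heavy chain of ferritin, was at 267 and 279 CPM with DFO and at 279 and 276 CPM with T003, with overlapping groups. FTL, the light chain of ferritin, differed by 0.06 (SE 0.030, adjusted p = 0.470), and ACO1 and IREB2, the 2 iron regulatory proteins, by -0.02 (SE 0.096) and -0.05 (SE 0.027). FBXL5, an iron-sensing subunit of the ligase that degrades IREB2 protein, was at 47.0 and 49.6 CPM with DFO and at 43.4 and 43.1 CPM with T003 (-0.16, SE 0.038, adjusted p = 0.0746). Of 25 tested members of the list for iron uptake, storage, export and sensing, the edgeR test called 0, with 3 at an unadjusted p under 0.05. DESeq2 called 2 members and limma-voom 0. The list for iron-sulfur clusters and proteins that carry them had 0 of 32 called (7 at an unadjusted p under 0.05, 1 with DESeq2, 0 with limma-voom). In the list for haem, 1 of 21 was called, against 1.34% of all genes tested. This call was ALAS1, the first enzyme of haem synthesis (0.22, SE 0.040, adjusted p = 0.0315). It was at 67.4 and 68.3 CPM with DFO and at 75.3 and 82.7 CPM with T003, against an untreated mean of 50.9 CPM. ALAS1 was called in 13 of 21 alternatives. Its difference was 0.28 without T003 replicate 1 at 24 h and 0.15 without T003 replicate 2.

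Genes of sterol synthesis and targets of SREBP2 were higher with T003. Of 25 tested members, 15 were called, all higher with T003, which is 60% against 0.884% of all genes tested. In 23 of the 25 both T003 libraries lay above both DFO libraries, which held for 4525 of all 20125 genes. The median difference over the list was 0.18, against 0 over all genes. This pattern was known when the list was chosen, so the count describes the list and is not independent support for it.

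Both DFO libraries at 24 h lay near the untreated level for the enzyme at the entrance of the pathway. HMGCS1, which makes HMG-CoA (chr5:43287470-43313412, minus strand), was at 299 and 309 CPM in untreated cells, at 301 and 310 CPM with DFO and at 419 and 427 CPM with T003. The T003 libraries were 1.38-fold higher (0.47, SE 0.027, adjusted p = 6.93e-05, 95% interval 0.41 to 0.53).

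Enzymes further along the pathway lay on the same side. MVD and IDI1, which complete the isoprenoid unit, differed by 0.25 each (SE 0.048 and 0.037). FDFT1, which commits that unit to sterols by making squalene, differed by 0.18 (SE 0.026), and SQLE, which oxidizes squalene, by 0.18 (SE 0.037). LSS, which closes the sterol rings, was at 47.5 and 48.9 CPM with DFO and 61.3 and 60.4 CPM with T003 (0.34, SE 0.037, adjusted p = 0.00462, and 0.0544 without T003 replicate 1). MSMO1, a demethylase of the later steps, differed by 0.24 (SE 0.034). DHCR7, which makes cholesterol in the last step, was at 123 and 128 CPM with DFO and at 161 and 158 CPM with T003 (0.35, SE 0.031, adjusted p = 0.00122).

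Genes for sterol transport and sensing were among the 15. INSIG1, which holds the SREBP escort protein in the endoplasmic reticulum and is itself an SREBP target, was at 126 and 141 CPM with DFO and at 174 and 166 CPM with T003 (0.35, SE 0.047, adjusted p = 0.0101). Its untreated mean of 108 CPM lay below both agents, and its adjusted p was 0.0509 without DFO replicate 1 and 0.104 and 0.0598 without T003 replicates 1 and 2. SREBF2, the gene of SREBP2, differed by 0.15 (SE 0.028, adjusted p = 0.0345), STARD4, a cytosolic sterol carrier, by 0.15 (SE 0.030), and ACAT2, which makes acetoacetyl-CoA for the pathway, by 0.16 (SE 0.032).

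The 10 tested members without a call included MVK (0.27, SE 0.062, adjusted p = 0.0690), CYP51A1 (0.18, adjusted p = 0.0537) and EBP (0.11, adjusted p = 0.0517). SCAP, the SREBP escort protein, was at -0.01 and TM7SF2, a sterol reductase, at -0.13, the 2 members below 0. The number of called members was 6 and 7 without DFO replicates 1 and 2 at 24 h, and 3 and 4 without T003 replicates 1 and 2. HMGCS1 and DHCR7 were called in all 21 alternatives. In a model of the 4 libraries alone 8 members were called, with DESeq2 19, and with the GC and length trend removed 18.

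**Figure D2:**
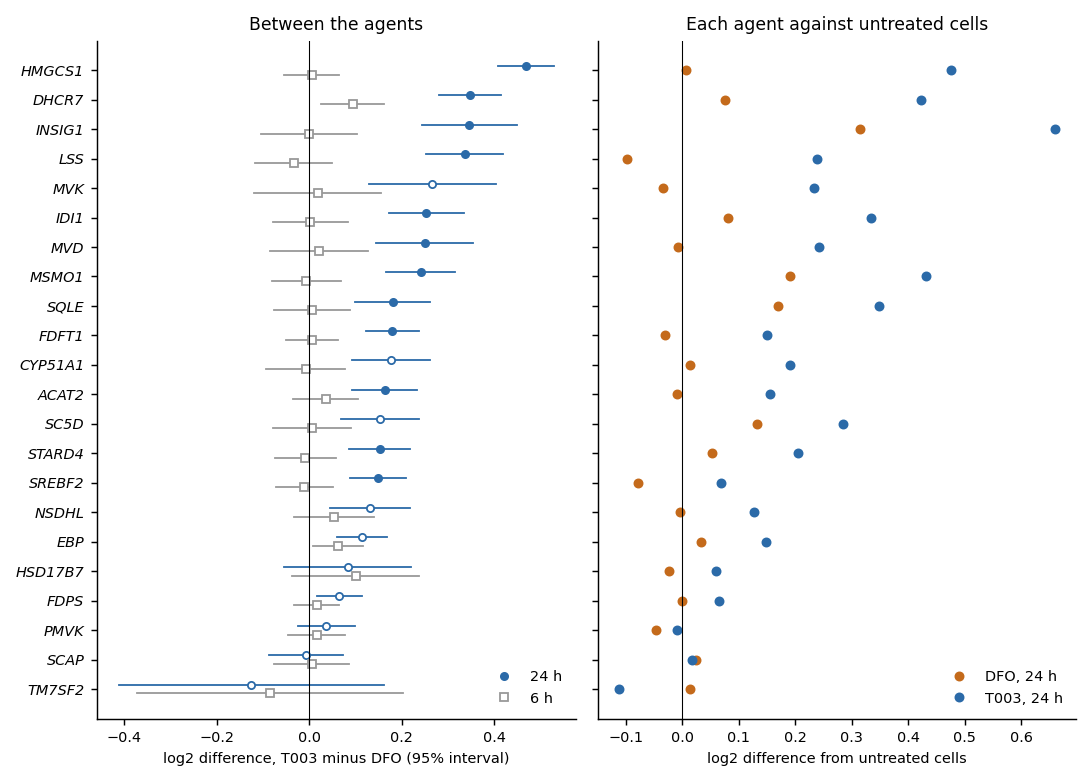
Left, the difference between T003 and DFO (log2, x axis, with 95% intervals) for 22 of the 25 tested sterol genes at 24 h (blue circles, filled where called) and 6 h (grey squares). Right, each agent at 24 h against untreated cells, on the log2 scale. The 12 filled points lie between 0.15 and 0.47, the grey squares lie near 0, and the DFO points (orange) centre near the untreated level.

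Against untreated cells, the median change of the 25 members was 0.01 with DFO and 0.21 with T003. Both values share the untreated libraries. For 6 of the 15 called members the DFO mean was below the untreated mean and the T003 mean above it, and for the other 9 both agents were above it. At 6 h the median difference between the agents over the 25 members was 0.01, and single members lay between -0.09 and 0.10.

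The promoters of 3 called members that the RefSeq table of GRCh38.p14 holds are shown because these are the 3 with the largest differences among members with an entry. Each run gives the 250 bases before the transcript start, on the gene's strand, and capitals mark CCAAT boxes read on either strand (CCAAT or ATTGG), the site of the factor NF-Y. They are chr5:43313413-43313662 and chr11:71448394-71448643 on the minus strand and chr7:155297628-155297877 on the plus strand.
HMGCS1: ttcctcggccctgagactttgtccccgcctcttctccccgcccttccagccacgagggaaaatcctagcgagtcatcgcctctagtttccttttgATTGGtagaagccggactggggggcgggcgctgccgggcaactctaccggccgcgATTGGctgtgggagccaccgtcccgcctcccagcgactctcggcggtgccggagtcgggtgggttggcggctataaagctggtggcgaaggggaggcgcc
DHCR7: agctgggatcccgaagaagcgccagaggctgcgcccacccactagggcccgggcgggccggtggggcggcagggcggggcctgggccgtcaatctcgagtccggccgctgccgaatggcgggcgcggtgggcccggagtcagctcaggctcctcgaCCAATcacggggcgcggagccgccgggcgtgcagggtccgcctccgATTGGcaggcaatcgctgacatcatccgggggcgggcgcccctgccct
INSIG1: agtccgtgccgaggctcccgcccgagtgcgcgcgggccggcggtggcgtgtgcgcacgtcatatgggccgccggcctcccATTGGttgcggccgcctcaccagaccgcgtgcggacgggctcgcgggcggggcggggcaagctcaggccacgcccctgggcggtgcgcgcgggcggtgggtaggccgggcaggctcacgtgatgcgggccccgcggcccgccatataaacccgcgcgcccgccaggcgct
SREBF2 (chr22:41832855-41833104, plus strand) is shown with capitals on a sterol regulatory element, the site of SREBP factors.
SREBF2: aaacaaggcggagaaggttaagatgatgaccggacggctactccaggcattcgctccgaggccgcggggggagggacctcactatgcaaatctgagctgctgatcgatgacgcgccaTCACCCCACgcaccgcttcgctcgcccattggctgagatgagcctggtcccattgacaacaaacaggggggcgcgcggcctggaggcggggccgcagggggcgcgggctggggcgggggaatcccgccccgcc
A CCAAT box was present in 8 of the 9 called members with an entry in the table, in 7 of the 10 without a call and in 33% of all 27305 promoters of the same length. The box is not particular to this list, as 23 of 27 promoters of the endoplasmic reticulum list, described below, also held it. The letters TCACNCCAC, searched on both strands as the sterol regulatory element, were present in SREBF2 alone among the 19 members with an entry and in 0.875% of all promoters. A match describes the letters and is not a measured site.

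Fatty acid synthesis genes, targets of the related factor SREBP1, were called in 3 of 19, all higher with T003, against 0.884% of all genes tested, with a list median of 0.05. LPIN1, a phosphatidate phosphatase of triglyceride and phospholipid synthesis, was at 123 and 123 CPM with DFO and at 151 and 153 CPM with T003 (0.31, SE 0.029, adjusted p = 0.00202). SCD, the desaturase that makes oleate, was at 715 and 712 CPM with DFO and 810 and 814 CPM with T003 (0.19, SE 0.019, adjusted p = 0.00257). The groups did not overlap for either gene. FASN, fatty acid synthase, differed by 0.17 (SE 0.033, adjusted p = 0.0365) and SREBF1 by 0.05 (SE 0.070, adjusted p = 0.827). LPIN1 was called in all 21 alternatives, SCD in 20 (adjusted p = 0.0591 without T003 replicate 2) and FASN in 11 (adjusted p up to 0.252, without T003 replicate 1). NPC1, which moves cholesterol out of lysosomes, was the only call among 10 sterol export genes and LXR targets (0.14, SE 0.030, adjusted p = 0.0471, called in 6 of 21 alternatives).

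Some chaperones were lower with T003. HSPA5, the main Hsp70 chaperone of the endoplasmic reticulum (BiP), was at 795 and 780 CPM with DFO and at 683 and 695 CPM with T003, below an untreated mean of 1005 CPM in both. The groups did not overlap, and the difference was -0.19 (SE 0.022, adjusted p = 0.00539, called in 20 of 21 alternatives). It was the single call among 28 endoplasmic reticulum chaperones and genes of the unfolded protein response, whose median was -0.05. Of all genes tested, 0.457% were called higher with DFO. CALR (-0.11, adjusted p = 0.0531) and PDIA3 (-0.10, adjusted p = 0.0516), which fold glycoproteins, did not pass. With DESeq2 6 members were called lower with T003, with limma-voom 5 lower and 1 higher, and with the GC and length trend removed 5 lower. Without T003 replicate 1 at 24 h the number called was 0, and the adjusted p of HSPA5 was then 0.0668. Without DFO replicates 1 and 2 at 6 h it was 3 and 4.

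The HSPA5 promoter (chr9:125241344-125241593, minus strand) is shown because it holds an endoplasmic reticulum stress element. Capitals mark that element, CCAAT and CCACG with 9 bases between them, whose first base lies 66 bases before the start.
HSPA5: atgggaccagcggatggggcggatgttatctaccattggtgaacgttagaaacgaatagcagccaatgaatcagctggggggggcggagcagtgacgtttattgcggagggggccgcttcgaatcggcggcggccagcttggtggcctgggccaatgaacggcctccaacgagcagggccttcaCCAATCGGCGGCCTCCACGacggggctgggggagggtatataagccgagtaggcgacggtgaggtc
On either strand these letters were found in 6 of 27 promoters of the endoplasmic reticulum list and in 0.0806% of all promoters.

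Cytosolic and mitochondrial chaperones had 3 of 18 called, all lower with T003, against 0.457% of all genes. HSPA8, the constitutive cytosolic Hsp70, was at 4543 and 4386 CPM with DFO and at 3941 and 4014 CPM with T003 (-0.17, SE 0.027, adjusted p = 0.0202). HSPD1, the mitochondrial chaperonin, differed by -0.14 (SE 0.018, adjusted p = 0.00622) and HSPA4, an Hsp70 exchange factor, by -0.10 (SE 0.020, adjusted p = 0.0414). The list median was -0.05 at 24 h and 0.01 at 6 h. At 24 h 2 of the 18 members were above 0, and at 6 h 15 were. The stress-induced HSPA1A and HSPA1B were at -0.01 (SE 0.145) and -0.05 (SE 0.140). Without T003 replicate 1 or 2 at 24 h the number of called members was 0, and without DFO replicate 1 it was 1. It was also 0 in a model of the 4 libraries alone.

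**Figure D3:**
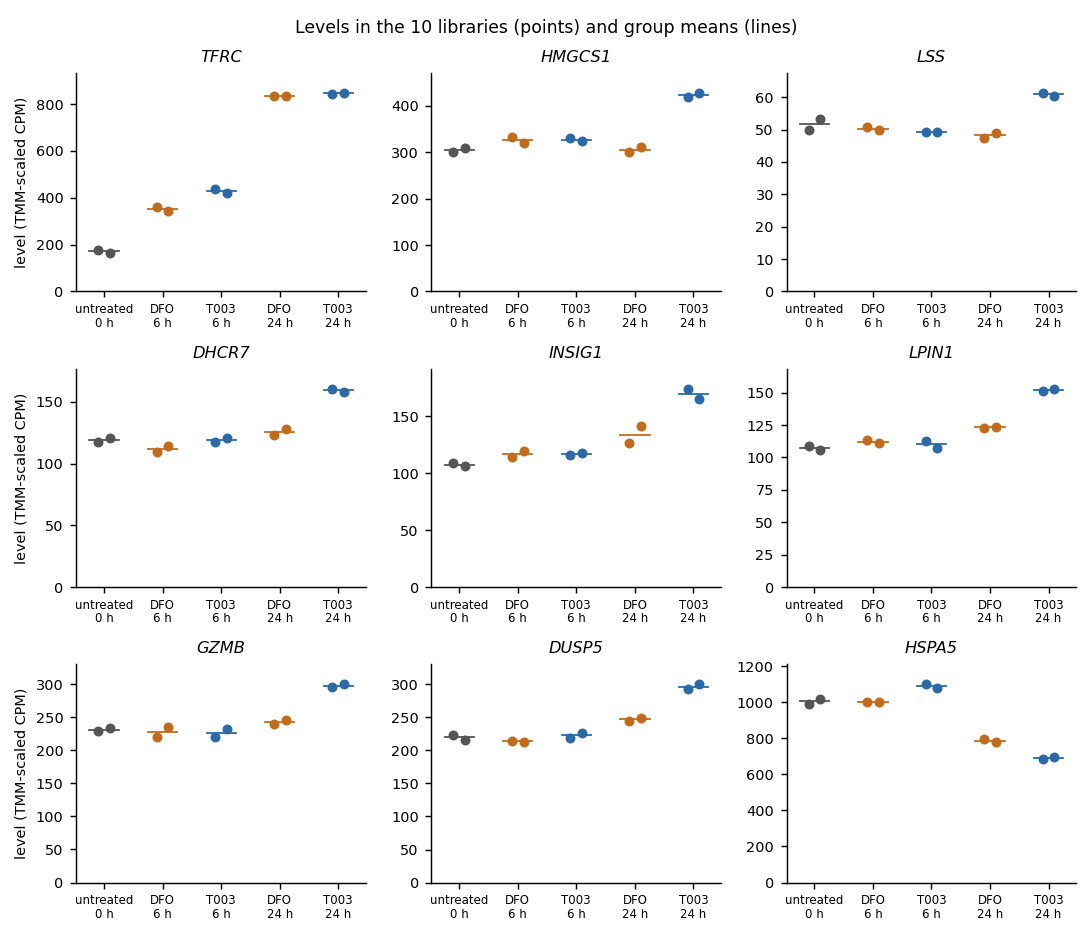
Levels of 9 genes in each of the 10 libraries (points, TMM-scaled CPM, axes from 0) with group means (lines), for untreated cells (grey), DFO (orange) and T003 (blue). TFRC is alike with both agents at 24 h, HMGCS1, LSS, DHCR7, INSIG1, LPIN1, GZMB and DUSP5 are highest with T003 at 24 h, and HSPA5 is lowest there.

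Genes of the killing machinery were higher with T003 in 3 of 21 cytotoxic effectors, against 0.884% of all genes tested, with a list median of 0.02. Both T003 libraries lay above both DFO libraries in 7 of the 21 and below them in 6. Over all 20125 genes tested, these counts were 4525 and 4306. GZMB, the granule protease granzyme B (chr14:24630954-24634190, minus strand), was at 231 CPM on average in untreated cells, at 239 and 246 CPM with DFO and at 296 and 300 CPM with T003. That is a difference of 0.29 (SE 0.034, adjusted p = 0.00546, called in 18 of 21 alternatives). Its adjusted p was 0.0553 without DFO replicate 1 and 0.0532 and 0.0798 without T003 replicates 1 and 2. PRF1, the pore-forming perforin, differed by 0.15 (SE 0.032, adjusted p = 0.0496) and GNLY, granulysin, by 0.15 (SE 0.029, adjusted p = 0.0373). These 2 calls held in 8 and 7 of 21 alternatives, and the number of effectors called was 0 without DFO replicate 1 or either T003 replicate at 24 h. The summed level of the 15 natural killer markers, which hold these 3 genes and IL2RB, was 4116 to 4151 CPM with DFO and 4369 to 4402 CPM with T003. The other 11 markers were not called. NKG7 and NCAM1 overlapped between the agents, with NKG7 at 838 and 860 CPM with DFO and 867 and 852 CPM with T003. NCR3, KLRD1, TBX21 and EOMES did not overlap and lay higher with T003, with NCR3 at 298 and 299 CPM against 306 and 313 CPM and EOMES at 149.9 and 152 CPM against 160 and 159 CPM. TYROBP lay lower with T003, at 2.33 and 2.22 CPM against 1.62 and 1.86 CPM. Whether cell composition took part in the difference was not tested.

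Receptors, signalling genes and transcription factors of the lineage had 1 or 2 calls a list, all higher with T003. Over all genes tested, 0.884% were called higher with T003, so these counts are not read as a property of the lists. IL2RB, the shared chain of the IL-2 and IL-15 receptors, was at 1189 and 1182 CPM with DFO and at 1316 and 1294 CPM with T003 (0.14, SE 0.027, adjusted p = 0.0380), the only call of 31 in its list. SLAMF7, an activating receptor of natural killer cells, was the only call of 39 receptors and adaptors (0.17, SE 0.024, adjusted p = 0.0108). ETS1 (0.17, SE 0.021, adjusted p = 0.00787) and IRF4 (0.14, SE 0.024, adjusted p = 0.0217) were the 2 calls of 26 lineage transcription factors, whose median was 0.07. The call on IL2RB held in 10 of 21 alternatives, on SLAMF7 in 16, on ETS1 in 17 and on IRF4 in 14. IFNG, which codes for interferon gamma, was at 12.3 and 13.3 CPM with DFO and 16.3 and 15.3 CPM with T003 (0.31, SE 0.123, adjusted p = 0.287), and CCL3, a chemokine, differed by 0.28 (SE 0.082, adjusted p = 0.138). Of 20 tested cytokines and chemokines edgeR called 0, with 4 at an unadjusted p under 0.05 and 1 called by DESeq2 and by limma-voom.

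Feedback and early response genes of the MAPK pathway had 3 of 31 called, all higher with T003, against 0.884% of all genes tested. DUSP5, a phosphatase that inactivates ERK in the nucleus, was at 245 and 249 CPM with DFO and at 293 and 300 CPM with T003 (0.26, SE 0.026, adjusted p = 0.00231, called in all 21 alternatives). JUN and FOSL2, both AP-1 factors, differed by 0.25 (SE 0.049, adjusted p = 0.0386) and 0.17 (SE 0.030, adjusted p = 0.0250). When any 1 of the 4 libraries was left out, DUSP5 was the 1 call left in the list. JUN is also the 1 call among the 8 markers of RNA handling given above. RGS1, which shortens G-protein signals of chemokine receptors, was at 6.03 and 6.95 CPM with DFO and at 11.4 and 11.8 CPM with T003. The groups did not overlap, and 0.84 (SE 0.119, adjusted p = 0.0108, but 0.0511 to 0.102 when 1 of the 4 libraries was left out) was the largest difference among calls for genes that have a locus to themselves and counts in every 24 h library. TXNIP, a thioredoxin inhibitor and regulator of glucose uptake, was at 69.3 and 68.9 CPM with DFO and at 84.6 and 87.0 CPM with T003 (0.31, SE 0.029, adjusted p = 0.00170, called in all 21). MAP1A, a microtubule-associated protein, was at 8.15 and 7.96 CPM with DFO and at 11.9 and 10.3 CPM with T003 (0.47, SE 0.079, adjusted p = 0.0240). E2F3P1, a pseudogene whose reads may come from its parent E2F3, differed by 0.37.

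Growth and survival genes were called in both directions. Of all genes tested, 0.884% were called higher with T003 and 0.457% higher with DFO. The BCL2 family had 2 of 21 called, and the list of G1 cyclins, CDKs and inhibitors had 2 of 23. BCL2, which blocks mitochondrial apoptosis, was at 130 and 131 CPM with DFO and 149 and 149 CPM with T003 (0.19, SE 0.024, adjusted p = 0.00768, but 0.0603 to 0.0839 when 1 of the 4 libraries was left out), and BMF, which promotes it, differed by 0.21 (SE 0.040, adjusted p = 0.0366). BMF was called in 12 of 21 alternatives. Among 54 tested genes of DNA replication and nucleotide synthesis, ORC1, MCM2, GINS3 and RRM2 were higher with T003 by 0.10 to 0.16. PCNA and CTPS1 were lower (-0.12 and -0.09). ORC1 was called in 14 of the 21 alternatives, MCM2 in 13, GINS3 in 8 and RRM2 in 7. In ribosome biogenesis, 5 of 55 were higher, among them PES1 (0.14, SE 0.026) and RRP12 (0.15, SE 0.030), and NPM1, nucleophosmin, was lower (-0.10, SE 0.019). The number of ribosome biogenesis genes called was 0 whichever of the 4 libraries was left out. The cell cycle regulators E2F2 and E2F8 were both higher by 0.20 (SE 0.032 and 0.033), each called in 16 of 21 alternatives. Of 44 genes of G2 and mitosis, KIF20A, a kinesin of cytokinesis, was called (-0.19, SE 0.040, adjusted p = 0.0478, called in 11 of 21 alternatives). In this list 10 members were above 0, and the median was -0.05.

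Among the 12 largest calls higher with DFO (non-overlapping groups and a mean level of 2 or more on the log2 CPM scale), AFAP1L2, an adaptor of SRC signalling, was at 40.1 and 39.6 CPM with DFO and at 30.6 and 31.6 CPM with T003. The DFO level was close to the untreated mean of 39.3 CPM, and the difference was -0.36 (SE 0.044, adjusted p = 0.00622, called in 19 of 21 alternatives, with 0.0839 and 0.0591 without T003 replicates 1 and 2). ZYG11B, a substrate receptor of a ubiquitin ligase, was at 10.2 and 10.5 CPM with DFO and at 7.61 and 8.23 CPM with T003 (-0.39, SE 0.077, adjusted p = 0.0401, called in 8 of 21). PPP3CB, a catalytic subunit of calcineurin, was lower with T003 by -0.26 (SE 0.040, adjusted p = 0.0142). The others were LOC105371275, CBR4, ARHGEF39, SNHG4, AIG1, MICAL2, TEX19, C2orf68 and DDX50, at -0.34 to -0.26. MLX, a partner of glucose-sensing factors (-0.16, SE 0.031), was the 1 call of 12 in its list. ATG3, which conjugates lipid to LC3 (-0.16, SE 0.030), was the 1 call of 29. SAMD9L, an interferon-stimulated gene (-0.17, SE 0.031), was the 1 call of 39. Of all genes tested, 0.457% were called higher with DFO.

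Lists tied to iron by other routes had 0 to 2 calls each, against 1.34% of all genes tested. Of 31 tested hypoxia and HIF targets, BHLHE40, a repressor of the circadian clock, was called (0.19, SE 0.028, adjusted p = 0.0120). It was at 143 and 142 CPM with DFO and at 161 and 163 CPM with T003, both below the untreated mean of 185 CPM. PDK1, an HIF target that slows the entry of pyruvate into the TCA cycle, differed by 0.00 (SE 0.070). Of 38 dioxygenases that need iron and 2-oxoglutarate, KDM2A and OGFOD1 were called, both at 0.11 (SE 0.021 each). MT1X, a metallothionein that binds zinc and copper, was at 41.5 and 37.2 CPM with DFO and at 33.1 and 30.9 CPM with T003 (-0.30, SE 0.066), and its adjusted p of 0.0576 missed the threshold. The same held for SLC30A1, the zinc exporter (-0.18, SE 0.041, adjusted p = 0.0627), and of 24 metal handling genes edgeR called 0, with 6 at an unadjusted p under 0.05, limma-voom 1 and DESeq2 3. In all, 11 of 35 lists had no call by edgeR. Of their 268 tested entries, 55 had an unadjusted p under 0.05, limma-voom called 7 and DESeq2 20.

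**Figure D4:**
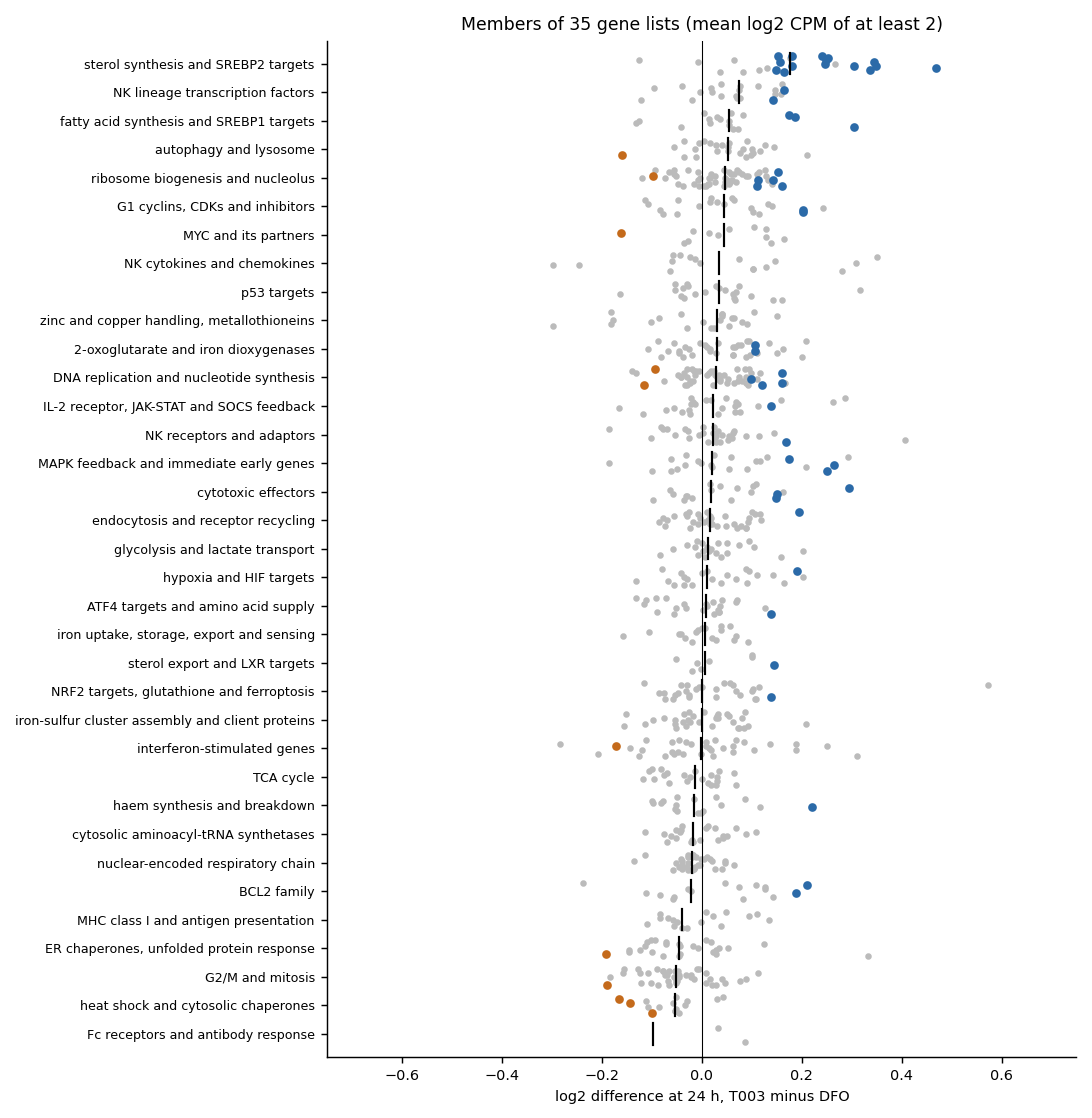
Members of 35 gene lists by their difference between T003 and DFO at 24 h (log2, x axis). Points are members whose mean log2 CPM is 2 or more, blue where called higher with T003, orange where called higher with DFO and grey where not called. Black bars are medians over all tested members, from 0.18 for sterol synthesis to -0.10 for Fc receptors. The Fc receptor median is over 11 tested members with 0 called, and its members at low levels are not drawn as points.

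Of the 8 calls that reached 1.5-fold, 5 were symbols that share transcript sequence with a neighbour, so that the counting could split their reads in more than 1 way. LUZP6, whose reading frame lies on the transcript of MTPN, had 407 and 519 estimated counts with DFO and 44 and 41 with T003 (-3.37, SE 0.656, adjusted p = 0.0377). The 2 symbols together stood at 462 and 464 CPM with DFO and at 471 and 467 CPM with T003 (0.02, adjusted p = 0.796). ASNS, asparagine synthetase, had 115 and 121 counts with DFO and 23 and 21 with T003, while CZ1P-ASNS, a readthrough symbol over the same gene, had 47 and 53 with DFO and 139 and 148 with T003. Their sum was 1.3 ± 0.018 CPM (SD, n = 2) with DFO and 1.34 ± 0.014 CPM with T003 (0.05, SE 0.225, adjusted p = 0.964), so the call on ASNS did not hold for the locus.

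The other 3 were ARHGAP19-SLIT1 (4.43), CA5BP1-CA5B (1.72) and GALNT4 (1.2), all higher with T003. Their locus sums differed by 4.6e-05 to 0.03, with adjusted p of 0.823 to 1. With the 5 loci summed, 256 genes were called, and all 256 were among the 270. The loci were chosen after their values were seen. Another 2 of the 8 were genes near 0. PPEF1 had 30 and 15 counts with DFO and LOC107984739 had 17 and 25, and both were at 0 in the T003 libraries, at least 7.31-fold and 6.66-fold lower against a floor of 3 counts per library. The last was RGS1, described above with its values.

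**Figure D5:**
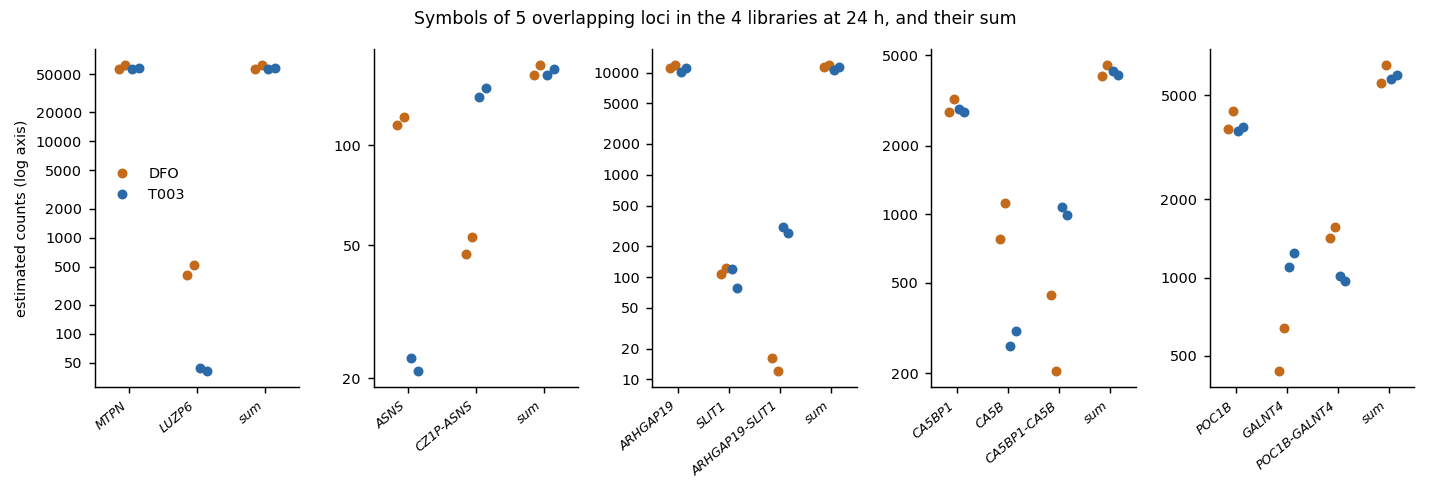
Estimated counts (log axis) of the symbols of 5 overlapping loci, and of their sum, in the 2 DFO libraries (orange) and the 2 T003 libraries (blue) at 24 h. Single symbols separate the agents, such as LUZP6 at 407 and 519 against 44 and 41, while the summed counts lie close together. Counts are not scaled for library depth.

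At 6 h the edgeR test called 0 genes between the agents (0% of those tested), with 1334 at an unadjusted p under 0.05, 7 called by DESeq2 and 1 by limma-voom. The test of whether the difference between the agents itself changed from 6 h to 24 h called 4 genes (0.0199%). Among them were HMGCS1, LPIN1 and HSPA5. In HMGCS1 and LPIN1 the libraries of the agents overlapped at 6 h and T003 was higher at 24 h, and in HSPA5 both T003 libraries lay above both DFO libraries at 6 h and below them at 24 h.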

How the data were processed

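Polyadenylated RNA of NK-92 cells was measured by mRNA sequencing, per the labels. The submitters' processing notes name fastp 0.21.0 (read trimming), HISAT2 2.2.1 (mapping), StringTie 2.1.6 (counting) and the build hg38. The table that the authors deposited holds estimated counts of 54628 symbols without normalization. StringTie derives such counts from coverage. The treatment of strand was not found in these sources. Values of overlapping or antisense genes are therefore uncertain.

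The estimated counts are whole numbers and went into edgeR 4.0.16 (R 4.3.3) unchanged. All 10 libraries entered 1 quasi-likelihood model with group as the only term, TMM scaling and filterByExpr (minimum count 10), which kept 20125 genes. The medians over genes were 5 residual and 5.83 prior degrees of freedom. Benjamini-Hochberg adjustment of the F-test's p-values ran over the 20125 genes, and an adjusted p under 0.05 is a call. SE is the log2 difference divided by the square root of F, and intervals are 95%. The floor for genes at 0 is 3 counts, which covers counting error only. The code was tested on simulated data.

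Named genes are the 12 largest calls each way with mean log2 CPM 2 or more and no overlap between libraries, the 3 members of each of 35 lists with the smallest p, a panel of 41 genes and the calls of comparisons with 5 or fewer. Other genes named are members given with their list or are said to be chosen after their values were seen. Members, lists and tests were chosen with earlier results of these data known. Alternatives were RLE scaling, other filters, other sets of libraries, the replicate number as a block, limma-voom (limma 3.58.1), DESeq2 1.42.0, leaving out each library and, added after the data were seen, removal of GC and length trends and the summing of 5 loci. Gene positions and promoter sequences come from RefSeq (GRCh38.p14), and all 146 named genes matched its gene table. Some members of the lists count in the totals and are not reported here by name.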

Additional observations from a re-analysis of the deposited data

Results flagged for a closer look

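For HMGCS1, HSPA5 and LPIN1 the difference between T003 and DFO at 24 h was itself different from that at 6 h, by the interaction term of the edgeR model over all 10 libraries. HMGCS1, the enzyme that makes HMG-CoA, was at 332 and 320 CPM with DFO and 331 and 324 CPM with T003 at 6 h, so that the groups overlapped. The difference was 0.01 at 6 h and 0.47 at 24 h, a change of 0.46 (SE 0.039, adjusted p = 0.00274), and it was called in 20 of 20 alternatives (adjusted p up to 0.0340).

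HSPA5, the endoplasmic reticulum chaperone, changed sides. At 6 h it was at 999.5 and 1000.4 CPM with DFO and at 1099.8 and 1080.8 CPM with T003 (0.12), and at 24 h it was lower with T003 (-0.19). The change of -0.32 (SE 0.031, adjusted p = 0.00711) was called in 20 of 20 alternatives (adjusted p up to 0.0395).

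LPIN1, the phosphatidate phosphatase, was at 113 and 111 CPM with DFO and 113 and 107 CPM with T003 at 6 h. Its difference moved by 0.33 (SE 0.042, adjusted p = 0.0392), called in 11 of 20 alternatives with adjusted p up to 0.222. At 6 h the difference between the agents was more closely tied to GC content than at 24 h (rank correlation 0.564 against 0.299). Libraries of the same agent at 6 h also differed from each other along GC content (0.61 for DFO and 0.227 for T003). With the GC and length trend removed 18 genes were called by the interaction.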

How the results depend on the processing

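Under the 21 alternatives, 0 of the 270 genes called at 24 h changed sign. Of the uncalled named genes, 0 to 5 changed sign, depending on the setting. The 270 calls at 24 h (178 higher with T003 and 92 higher with DFO) became 446 (296 and 150) with a filter of 1 CPM in 2 libraries, 55 (43 and 12) in a model of the 4 libraries alone, and 827 (534 and 293) with DESeq2. They became 14 to 229 when 1 library was left out, with 10 to 141 higher with T003 and 4 to 90 higher with DFO. In such fits a group with 1 library is assumed to vary like the others. RLE scaling gave 266, no filter 261, the 8 treated libraries 187, limma-voom 380, removal of GC and length trends 343 and summing 5 loci 256.

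The 0 calls at 6 h became 2 with no filter, 2 with 1 CPM, 2 in a model of the compared libraries, 2 with the 8 treated libraries, 1 with limma-voom, 7 with DESeq2, 2 with the trends removed and 0 to 4 without 1 library. The 4 interaction calls became 16 with no filter, 10 with 1 CPM, 19 with limma-voom, 169 with DESeq2, 18 with the trends removed and 2 to 11 without 1 library. An interaction over the compared libraries is the same fit as that of the 8 treated libraries. The cause of these shifts was not tested.

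Same-numbered libraries did not deviate together over all genes tested (correlations of -0.052 to 0.012). With 2 libraries per group and genes at low levels included, this measure does not settle whether libraries were paired. The main model treated the numbers as replicate names only. A replicate block gave 117 calls at 24 h (76 and 41), 1 at 6 h and 5 for the interaction. With the trends removed and a replicate block, it gave 254, 1 and 8. Groups of 2 libraries limit what can be called, and 218 of the 270 calls reached 1.1-fold.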

Other observations

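The genes given here were chosen after their values were seen. Apart from CD28, a T cell marker, and CCT3, of the chaperone list, they were on no list. Among genes that serve protein folding and the start of translation, CCT4, a subunit of the cytosolic chaperonin, was at 348 and 351 CPM with DFO and 321 and 314 CPM with T003 (-0.14, SE 0.020, adjusted p = 0.0138). CCT3, another subunit gene of the same chaperonin, lay slightly higher with T003 after scaling and was not called. PFDN4, a prefoldin subunit, differed by -0.21 (SE 0.040) and TBCA, a tubulin-folding cofactor, by -0.17 (SE 0.030). The initiation factor genes EIF3E, EIF3J and EIF5 differed by -0.15 (SE 0.024), -0.14 (SE 0.022) and -0.15 (SE 0.024). EIF3D, another subunit gene of the same factor, was called in the other direction (0.12).

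Among surface molecules higher with T003, SELPLG, the ligand of P-selectin, was at 62.7 and 58.9 CPM with DFO and 71.3 and 69.4 CPM with T003, while untreated cells were at 99.1 and 108 CPM. CD44, the hyaluronan receptor, differed by 0.16 (SE 0.030). CD28, the costimulatory receptor, was at 116 and 123 CPM with DFO and 133 and 135 CPM with T003 (0.16, SE 0.032, adjusted p = 0.0377). PPP1R16B, a regulatory subunit of protein phosphatase 1, was at 378 and 373 CPM with DFO and 455 and 448 CPM with T003, against 439 and 435 CPM in untreated cells (0.27, SE 0.022, adjusted p = 0.000660). It and ZNF317, a zinc finger gene (0.23, SE 0.024), were among the 8 genes called in every alternative, as were DHCR7, DUSP5, HMGCS1, LPIN1 and TXNIP.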
